A study of Mus musculus with 6 samples.

Results

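SMAD proteins carry signals of the TGF-beta family from receptors at the cell surface to the nucleus. The genes described here are the 10 SMADs and SMAD antagonists Smad1, Smad2, Smad3, Smad4, Smad5, Smad7, Ski, Skil, Tgif1 and Pmepa1, taken by symbol from a table of 24453 gene symbols. Where a symbol had several transcripts, the one with the highest mean level over the 6 libraries was used. RNA was sequenced from CD4+Foxp3+ regulatory T cells (Treg cells), lymphocytes that restrain immune responses, obtained by cell sorting, and the mice were healthy females of the C57BL/6 strain. The miR-27 Tg group held 3 libraries of cells in which miR-27a was overexpressed specifically in Treg cells, and the WT group held 3 libraries whose genotype label reads WT Tg. The series title names the mice Foxp3cre het. Foxp3 lies on the X chromosome, so in heterozygous females Cre driven from it is active in only some Treg cells. The sources used here do not give whether the sort selected those cells, whether the WT mice carried Cre, or the age of the mice. They also do not say whether each library came from its own mouse. The p-values therefore reflect the spread among libraries and may reflect technical spread alone.

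When TGF-beta or activin binds its receptors, Smad2 and Smad3 are phosphorylated, and bone morphogenetic proteins (BMPs) act in the same way through Smad1 and Smad5. The phosphorylated SMADs join Smad4 and bind DNA together with other factors. Smad7 blocks the receptors, Ski, Skil and Tgif1 recruit histone deacetylase complexes to SMADs on DNA, and Pmepa1 keeps SMADs from the receptor. Several of these antagonists are themselves induced by TGF-beta. In T cells TGF-beta signalling promotes Foxp3 expression in induced Treg cells and the expression of the integrin CD103.

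The transgene product is shown here because microRNAs repress transcripts through matches to their seed. In the mature miR-27a strand and its paralogue, given with bases 2 to 8 in capitals (RefSeq, GRCm38.p6), the seed is the same:
miR-27a-3p: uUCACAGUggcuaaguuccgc
miR-27b-3p: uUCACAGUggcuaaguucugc
The match to this seed, ACTGTGA on the transcript strand, was searched in the 3′ UTRs of the GENCODE M21 transcripts (GRCm38) that correspond to the 10 counted transcripts. It occurred once in Smad3 and once in Smad1 and was not found in the other 8. For Smad2, Smad7 and Skil the GENCODE transcripts are shorter than the counted ones, so part of their 3′ UTRs may not have been searched. Shorter matches to the seed were not searched in any gene. The windows of 29 bases printed here span chr9:63649223-63649251 (minus strand) and chr8:79338798-79338826 (minus strand). The sites within them, in capitals, start at bases 1022 and 834 of the 2 annotated 3′ UTRs:
Smad3: tgccacagcaaACTGTGAcactgtgtaat
Smad1: taattcctctaACTGTGAgagcagatgag
Neither match is followed by an A, so neither is the longer form that has an A opposite the first base of the microRNA. A site was present in 16.5% of the 11817 tested genes with an annotated 3′ UTR. Among tested genes with a 3′ UTR within 1.25-fold of the same length, the share was 33.2% for Smad3 (3495 bases) and 15.6% for Smad1 (1254 bases). For the genes without a match, that share reached 48% at the 3′ UTR length of Smad2 (6233 bases), 42.3% at that of Smad5 (4899 bases) and 38% at that of Skil (3960 bases). A match is a description of sequence and does not show repression.

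Levels are given in RPKM, here reads per kilobase of exon and per 10000000 reads counted over the table. Fold changes are differences of log2(RPKM + 1), miR-27 Tg minus WT, from limma, with Benjamini-Hochberg adjustment over 13621 genes with a mean of at least 1 RPKM. All 10 genes passed that filter, which was applied to the mean over both groups. Between 415 and 10454 reads fell on each gene in each library, for which counting error alone gives a coefficient of variation of 4.91% to 0.978%. The GENCODE M21 transcripts that correspond to the 10 counted transcripts share no exonic base with another gene. Within them, the counting of both strands adds no reads of an annotated neighbour. For Smad2, Smad7 and Skil they are shorter than the counted transcript, at 8089 against 8739, 4278 against 4435 and 6578 against 6919 bases. Part of the counted bases of these genes was thus not checked.

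Library totals were 34400000 to 38100000 counted reads in miR-27 Tg and 37700000 to 42100000 in WT. Mir27a, the hairpin of the transgene, had 8919, 7448 and 7898 RPKM in miR-27 Tg replicates 1 to 3 and 24.9, 38.4 and 24.7 RPKM in WT, so each library matched its label. Markers of CD4 T and Treg cells were present in every library, with Foxp3 at 774 to 955 RPKM in miR-27 Tg and 662 to 830.3 RPKM in WT. Of these 8 markers, all tested, 3 had a fold change above 0, and 0 passed the test. The summed level of the 8 was 11476 to 12761 RPKM in miR-27 Tg and 13284 to 14233 RPKM in WT. These sums do not overlap, so the markers as a list were lower in miR-27 Tg. Of 15 tested markers of myeloid cells, which the sort is meant to leave out, 14 had a fold change above 0, and 1 passed the test (Itgam). With Cd14, which was not tested, the summed level of the 16 myeloid markers was 595 to 2139 RPKM in miR-27 Tg and 450.3 to 860 RPKM in WT. Cd14 was at 0 in at least 1 library. The part of myeloid cells in the results on SMAD and pathway genes was not tested. In such bulk libraries fewer cells that express a gene and less RNA per cell cannot be told apart.

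The comparison asked whether the SMADs and their antagonists differ between Treg cells with excess miR-27 and WT Treg cells. By limma, 0 of the 10 genes passed an adjusted p of 0.05 in either direction, where 1.03% of all genes tested passed. At an unadjusted p under 0.05 there was 1 of 10 (Smad5), against 13% of all genes tested. The median log2 fold change of the 10 was 0.01, beside -0.01 over all genes tested, and their median absolute change was 0.13, as over all genes tested (0.13). Every 95% interval lay within a 2-fold change in either direction, as did that of 84.0% of all genes tested. The intervals are taken one gene at a time.

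**Figure D1:**
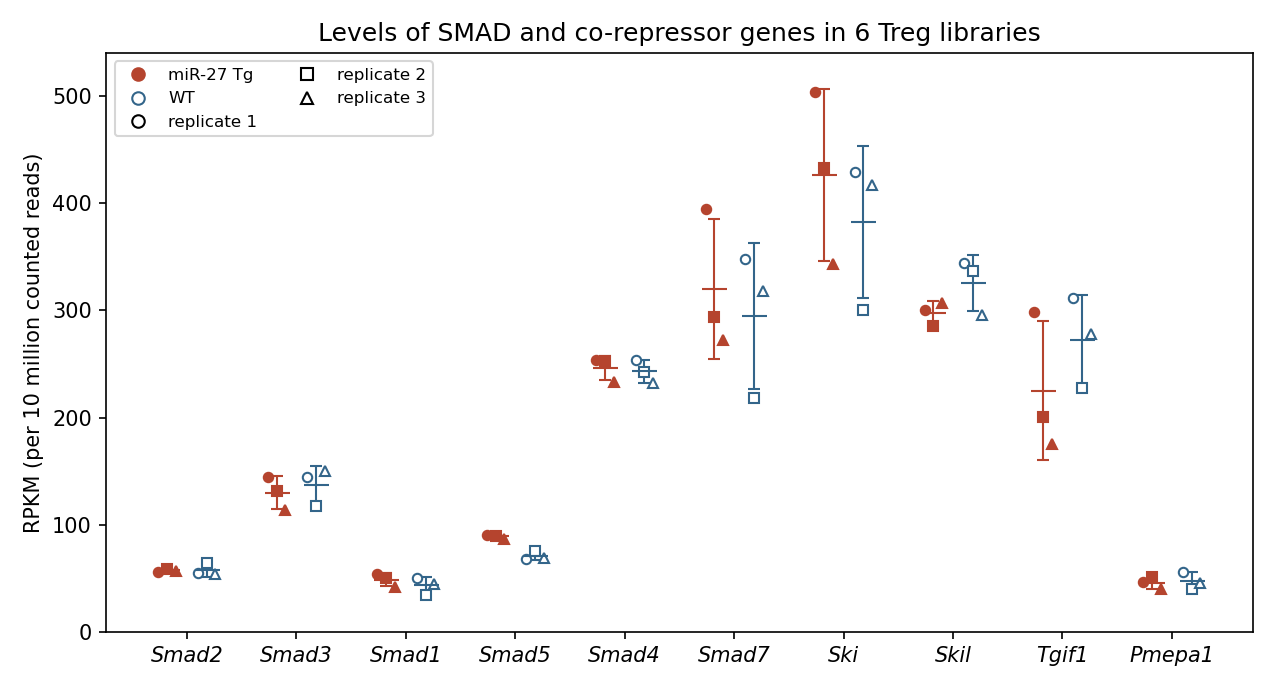
RPKM of the 10 genes (vertical axis, per kilobase and per 10000000 counted reads) in 3 miR-27 Tg libraries (filled) and 3 WT libraries (open), with the replicate as the symbol's shape. Horizontal ticks are means and bars are SD; Smad5 is the gene whose groups do not overlap, with 87.0 to 90.25 RPKM in miR-27 Tg and 68.4 to 75.8 RPKM in WT.

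Among the receptor-activated SMADs of the TGF-beta and activin branch, Smad2 (NM_010754, mm10 chromosome 18, 76241701 to 76311747, plus strand) had 56.2, 59.0 and 57.2 RPKM in miR-27 Tg replicates 1 to 3 and 54.8, 64.5 and 53.7 RPKM in WT replicates 1 to 3. The miR-27 Tg values lie inside the WT range. Smad2 averaged 57.5 ± 1.43 RPKM in miR-27 Tg and 57.6 ± 5.96 RPKM in WT (SD, n = 3 each), a log2 fold change of 0.00 with a 95% interval of -0.26 to 0.26 (limma, adjusted p = 0.999). In fold terms the interval runs from 0.837 to 1.20. The 3 annotated Smad2 transcripts share most exons and could not be resolved, and their log2 differences were all between -0.005 and 0.001.

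Smad3 (NM_016769, chromosome 9, 63646767 to 63757994, minus strand), the SMAD that binds DNA at the Foxp3 enhancer in T cells given TGF-beta, was the most abundant receptor-activated SMAD. It had 144, 132 and 114 RPKM in miR-27 Tg and 144, 118 and 150 RPKM in WT. The groups overlap, and the lowest value is that of miR-27 Tg replicate 3. The means were 129.95 ± 15.3 RPKM in miR-27 Tg and 137 ± 17.4 RPKM in WT (SD, n = 3 each), with a log2 fold change of -0.08 (95% interval -0.38 to 0.22, limma adjusted p = 0.871). For the gene with the seed match shown above, the interval extends to 1.30-fold lower in miR-27 Tg.

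In the BMP branch, Smad5 (NM_008541, chromosome 13, 56703010 to 56742378, plus strand) had 90.25, 89.9 and 87.0 RPKM in miR-27 Tg and 68.4, 75.8 and 68.6 RPKM in WT. Every miR-27 Tg library was above every WT library, as for 6.84% of all genes tested, and no other of the 10 genes had groups apart in either direction (18.5% of all genes tested did). The means were 89.0 ± 1.79 RPKM in miR-27 Tg and 70.9 ± 4.19 RPKM in WT (SD, n = 3 each). The log2 fold change was 0.33 (SE 0.09, 95% interval 0.11 to 0.54), which is 1.25-fold (1.08 to 1.46). It did not pass after adjustment (limma, unadjusted p = 0.00865, adjusted p = 0.182), and it ranked 646th by p among 13621 genes. The 3 annotated Smad5 transcripts gave log2 differences of 0.32 to 0.33. The match ACTGTGA to bases 2 to 8 of miR-27a was not found in the 3′ UTR searched for the counted one.

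Smad1 (NM_008539, chromosome 8, 79338398 to 79399468, minus strand), the other SMAD of the BMP branch and the second gene with a seed match, had 53.9, 50.5 and 42.0 RPKM in miR-27 Tg and 50.5, 34.7 and 44.9 RPKM in WT. The groups overlap and WT replicate 2 is the lowest library. Smad1 averaged 48.8 ± 6.13 RPKM in miR-27 Tg and 43.4 ± 7.99 RPKM in WT (SD, n = 3 each), a log2 fold change of 0.17 (95% interval -0.21 to 0.56, limma adjusted p = 0.744). The interval extends to 1.16-fold lower and to 1.47-fold higher in miR-27 Tg.

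Taken as a share of the summed RPKM of Smad1, Smad2, Smad3 and Smad5, Smad1 and Smad5 together made up 41.8%, 42.4% and 43.0% in miR-27 Tg replicates 1 to 3 and 37.4%, 37.8% and 35.7% in WT replicates 1 to 3. All miR-27 Tg shares are above all WT shares. The members were chosen with results known, so this ratio of transcript levels is given without a test, and it includes the Smad5 values above. The summed RPKM of the 4 genes was 345, 331 and 300.1 in miR-27 Tg and 318, 293 and 318 in WT, which overlap.

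Smad4 (NM_008540, chromosome 18, 73639013 to 73703741, minus strand), the common partner of both branches, was among the steadiest of the 10 genes. It had 253, 252 and 233 RPKM in miR-27 Tg and 254, 243 and 233 RPKM in WT, which overlap almost fully. The log2 fold change was 0.02 with the narrowest interval of the 10 genes, -0.17 to 0.21 (limma, adjusted p = 0.959), or 0.887-fold to 1.16-fold. The means were 246 ± 11.2 RPKM in miR-27 Tg and 243 ± 10.6 RPKM in WT (SD, n = 3 each).

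The inhibitory SMAD, Smad7 (NM_001042660, chromosome 18, 75367365 to 75395934, plus strand), recruits ubiquitin ligases to the receptor and is a feedback target of TGF-beta. It had 395, 294 and 272 RPKM in miR-27 Tg and 348, 218 and 318 RPKM in WT. The spread within each group was wider than the difference between them. Its means were 320.2 ± 65.3 RPKM in miR-27 Tg and 295 ± 68.2 RPKM in WT (SD, n = 3 each), with a log2 fold change of 0.13 (95% interval -0.33 to 0.59, limma adjusted p = 0.864). The ratio of Smad7 to Smad3, the inhibitor to the most abundant SMAD that it opposes, was 2.73, 2.23 and 2.39 in miR-27 Tg and 2.41, 1.85 and 2.11 in WT, which overlap.

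Smad6 and Smad9, the family members outside the list, were barely detected and were not tested. Smad6, an inhibitory SMAD of the BMP branch, had 1, 4 and 2 reads in miR-27 Tg and 3, 1 and 1 reads in WT. Smad9, another receptor-activated SMAD of the BMP branch, had 0, 1 and 2 reads in miR-27 Tg and 0, 0 and 2 reads in WT. Smad7 was thus the inhibitory SMAD with measurable transcript in these libraries.

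**Figure D2:**
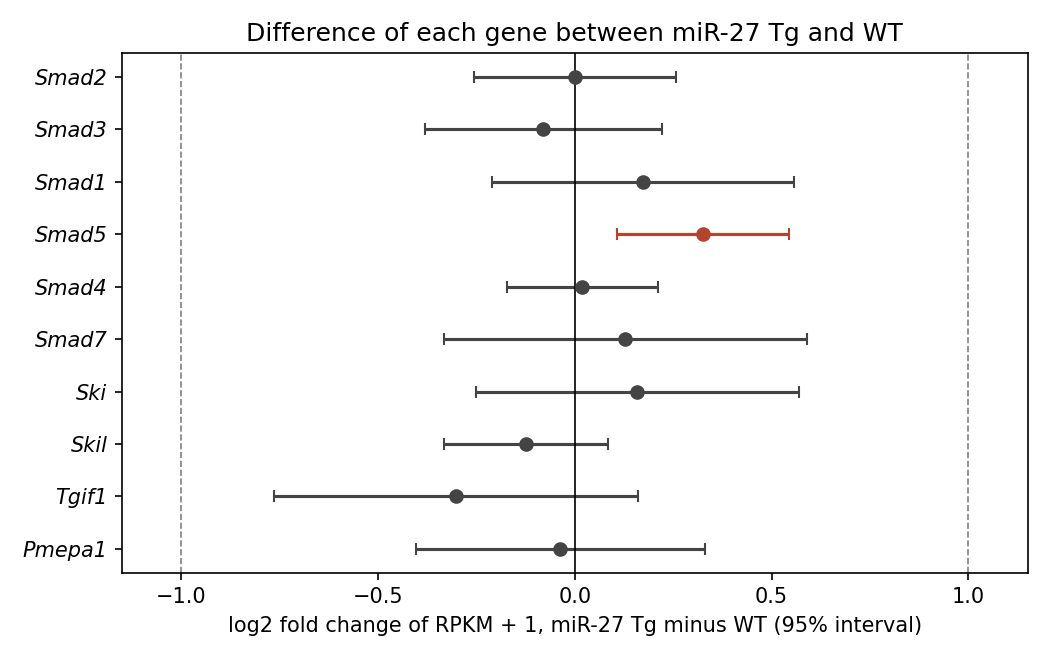
Log2 fold change of each gene (horizontal axis, miR-27 Tg minus WT, on the log2(RPKM + 1) scale) with its 95% interval from limma, and dashed lines at a 2-fold change. All 10 intervals lie between the dashed lines, and that of Smad5 (0.11 to 0.54), drawn in red because its groups do not overlap, is the interval that leaves out 0.

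Of the nuclear co-repressors, Ski (NM_011385, chromosome 4, 155154075 to 155222535, minus strand), the cellular homologue of a viral oncogene that displaces co-activators from SMADs, had the highest mean level of the 10 genes. It had 503, 433 and 343 RPKM in miR-27 Tg and 429, 301 and 417 RPKM in WT. The groups overlap over most of their range. Ski averaged 426 ± 80.2 RPKM in miR-27 Tg and 382 ± 70.9 RPKM in WT (SD, n = 3 each), a log2 fold change of 0.16 (95% interval -0.25 to 0.57, limma adjusted p = 0.791).

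Skil (NM_001039090, chromosome 3, 31095058 to 31122923, plus strand) encodes SnoN, a paralogue of Ski that TGF-beta first degrades and later induces. It had 300.4, 286 and 307 RPKM in miR-27 Tg and 344, 336 and 296 RPKM in WT. WT replicate 3 falls among the miR-27 Tg values, and the other 2 WT libraries stand above all 3. The means were 298 ± 10.8 RPKM in miR-27 Tg and 325 ± 26.0 RPKM in WT (SD, n = 3 each), with a log2 fold change of -0.12 (95% interval -0.33 to 0.08, limma adjusted p = 0.639). Its 3 annotated transcripts gave log2 differences between -0.13 and -0.12. The ratio of Ski to Skil was 1.67, 1.52 and 1.12 in miR-27 Tg and 1.25, 0.894 and 1.41 in WT.

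Tgif1 (NM_001164074, chromosome 17, 70844205 to 70853532, minus strand), a homeodomain protein that brings histone deacetylases to SMADs, had 299, 201 and 175 RPKM in miR-27 Tg and 311, 228 and 278 RPKM in WT. The lowest 2 values are miR-27 Tg libraries, but miR-27 Tg replicate 1 stands above 2 of the 3 WT libraries. The means were 225 ± 65.0 RPKM in miR-27 Tg and 273 ± 42.0 RPKM in WT (SD, n = 3 each). The log2 fold change was -0.30 with the widest interval of the 10 genes, -0.77 to 0.16 (limma, adjusted p = 0.614), so a level up to 1.70-fold lower in miR-27 Tg lies within it. Leaving out miR-27 Tg replicate 1 gave a log2 fold change of -0.52 (adjusted p = 0.239), and leaving out miR-27 Tg replicate 3 gave -0.14 (0.826). Its 5 annotated transcripts gave log2 differences between -0.34 and -0.30.

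Pmepa1 (NM_022995, chromosome 2, 173224465 to 173276533, minus strand), a membrane protein induced by TGF-beta in many cell types, had 46.9, 51.2 and 39.7 RPKM in miR-27 Tg and 56.2, 39.9 and 45.8 RPKM in WT. The groups overlap, with the lowest value in miR-27 Tg replicate 3 and the highest in WT replicate 1. Pmepa1 averaged 45.9 ± 5.84 RPKM in miR-27 Tg and 47.3 ± 8.24 RPKM in WT (SD, n = 3 each), a log2 fold change of -0.04 (95% interval -0.40 to 0.33, limma adjusted p = 0.960).

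Over all 6 libraries the levels, which are per length, ran from Ski (404 RPKM, above 92.0% of genes tested) through Skil (312), Smad7 (307), Tgif1 (249), Smad4 (245), Smad3 (134), Smad5 (80.0), Smad2 (57.6) and Pmepa1 (46.6) to Smad1 (46.1 RPKM, above 42.6%). The library ranges of neighbours overlap among the first 5 genes and among the last 3. They do not overlap between Smad4 and Smad3, Smad3 and Smad5, or Smad5 and Smad2, where the first was higher in 6 of 6 libraries. The antagonists Ski, Skil, Smad7 and Tgif1 thus had higher transcript levels than each receptor-activated SMAD. The antagonist Pmepa1 did not, with a mean below those of Smad3, Smad5 and Smad2.

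Libraries of the same group differed from each other, by amounts that varied between the genes. The coefficient of variation within a group was 20.4% in miR-27 Tg and 23.1% in WT for Smad7, 18.8% in miR-27 Tg and 18.6% in WT for Ski, and 28.9% in miR-27 Tg and 15.4% in WT for Tgif1. For Smad4 it was 4.55% in miR-27 Tg and 4.38% in WT. miR-27 Tg replicate 1 was the highest of its group for 7 of the 10 genes (24.8% of all genes tested), and miR-27 Tg replicate 3 the lowest for 8 (28.4%). In WT, replicate 1 was the highest for 7 of the 10 genes (23.4% of all genes tested) and replicate 2 the lowest for 6 (28%). Smad1, Smad3, Smad4, Smad5, Smad7, Ski and Tgif1 share both positions in miR-27 Tg, and the genes are not independent of each other. Both replicates numbered 1 are the most deeply sequenced of their groups, at 38100000 reads in miR-27 Tg and 42100000 in WT, and the part of depth in this pattern was not tested.

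**Figure D3:**
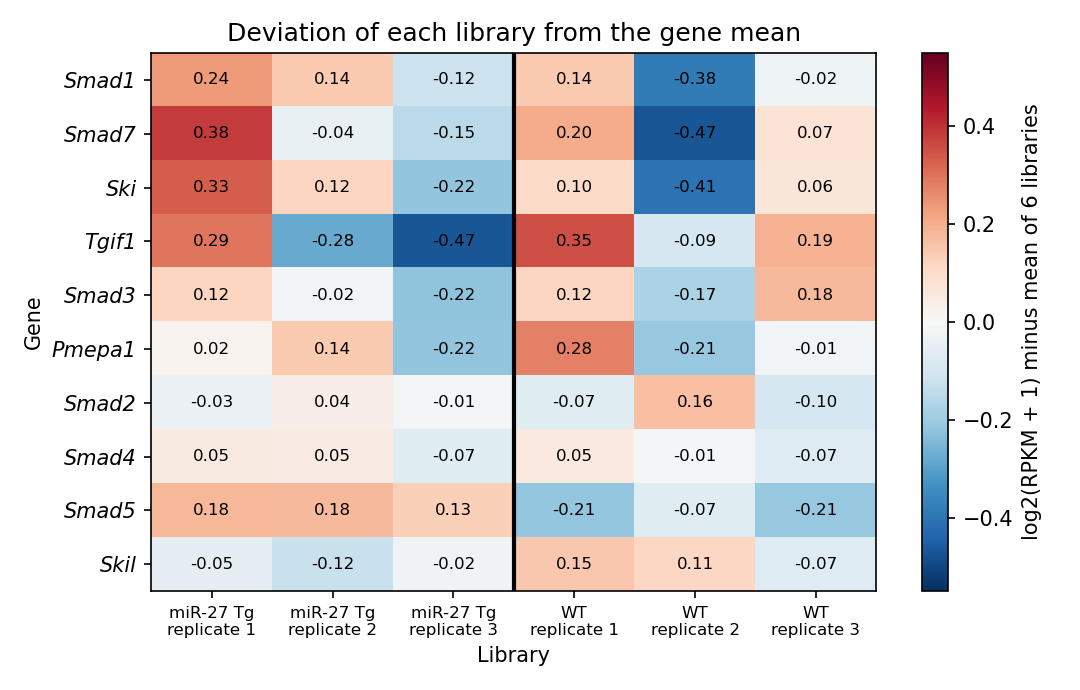
Deviation of log2(RPKM + 1) in each library (columns, miR-27 Tg left and WT right) from the gene's mean over the 6 libraries (rows), in colour and in figures. Smad7 is at 0.38 in miR-27 Tg replicate 1 and at -0.47 in WT replicate 2, whereas Smad5 is above 0 in all 3 miR-27 Tg libraries and below 0 in all 3 WT libraries.

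By Pearson correlation of log2 levels over the 6 libraries, genes most like Smad5 included Tcf20 (r = 0.996) and Fam49a (r = 0.992). These points share their libraries and the group difference, so r is a description. Tcf20 had 326, 328 and 309 RPKM in miR-27 Tg and 234, 259 and 239 RPKM in WT, and Fam49a had 126, 124 and 117 RPKM in miR-27 Tg and 95.03, 104.7 and 91.5 RPKM in WT. Neither passed the test (limma adjusted p = 0.0813 and 0.169).

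The rest of the pathway was described through lists of 113 genes by role, of which 96 were tested; 1 was higher and 6 were lower in miR-27 Tg by limma. Without miR-27 Tg replicate 1, 2 or 3 the lower genes numbered 1, 3 and 1, and without WT replicate 1, 2 or 3 they numbered 1, 2 and 0. The higher gene no longer passed without miR-27 Tg replicate 3 or without WT replicate 3. The median log2 fold change over the 96 was 0.02. The share higher among all genes tested was 0.374% and the share lower 0.653%. Of the 6 lower genes, 5 belong to the list of genes known to respond to TGF-beta. The lists were drawn up with results of these data known, so the counts beside these shares are no evidence of enrichment.

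Upstream of the SMADs, 1 of 10 tested genes for ligands and their activation was lower and 0 were higher (median log2 fold change -0.04). At an unadjusted p under 0.05 by limma there were 3, 1 higher and 2 lower, against 13% of all genes tested. Tgfb1, the main TGF-beta of Treg cells, had 471, 374 and 277 RPKM in miR-27 Tg and 415, 226 and 413 RPKM in WT (log2 fold change 0.11, adjusted p = 0.923). As for Smad7 and Ski, its lowest library was WT replicate 2 and its highest miR-27 Tg replicate 1. Itgb8, an integrin chain that frees TGF-beta from its latent form, was the gene that fell (log2 fold change -1.09, adjusted p = 0.0315, n = 3 each by limma). It had 20.3, 17.8 and 19.5 RPKM in miR-27 Tg and 50.5, 43.5 and 34.0 RPKM in WT. In each fit that left out 1 library its adjusted p was 0.0530 to 0.123. Bmp7, a BMP ligand, had 33.6 ± 9.06 RPKM in miR-27 Tg and 51.7 ± 4.39 RPKM in WT (adjusted p = 0.222).

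Of 13 tested receptor genes 1 was higher, 0 were lower and 12 did not pass, with a median log2 fold change of 0.01. At an unadjusted p under 0.05 by limma there were 7, 4 higher and 3 lower, against 13% of all genes tested. Tgfbr1, the kinase that phosphorylates Smad2 and Smad3, had 122, 140.2 and 141 RPKM in miR-27 Tg and 228, 215 and 179.8 RPKM in WT. All miR-27 Tg libraries were below all WT libraries, where 18.5% of all genes tested had groups apart in either direction. The log2 fold change of -0.62 (SE 0.12) did not pass (limma adjusted p = 0.0590). Tgfbr1 passed in 1 of 15 alternatives, with transcripts of under 200 bases left out (limma adjusted p = 0.0389). Its adjusted p was 0.0850 to 0.158 with any 1 library left out and 0.246 with no filter on low values. Tgfbr2, the receptor chain that binds TGF-beta, had 589, 471 and 423 RPKM in miR-27 Tg and 524, 386 and 459 RPKM in WT (log2 fold change 0.11, adjusted p = 0.840). Acvrl1, a type I receptor that signals through Smad1 and Smad5, was the gene that rose, with 49.6, 47.3 and 42.9 RPKM in miR-27 Tg and 17.6, 12.7 and 16.5 RPKM in WT (log2 fold change 1.53, limma adjusted p = 0.0118). Its adjusted p was 0.0703 when miR-27 Tg replicate 3 was left out and 0.0530 when WT replicate 3 was. Eng, a co-receptor that works with Acvrl1, had 4.27 ± 1.38 RPKM in miR-27 Tg and 2.27 ± 0.507 RPKM in WT (adjusted p = 0.325).

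Among regulators of SMAD turnover, transport and dephosphorylation, 0 of 25 tested genes passed by limma (median 0.05). At an unadjusted p under 0.05, 1 was higher and 3 were lower, against 13% of all genes tested. Usp11, a deubiquitinase, had 47.0 ± 9.24 RPKM in miR-27 Tg and 73.2 ± 5.93 RPKM in WT (log2 fold change -0.64, adjusted p = 0.110). Ldlrad4, a membrane protein related to Pmepa1, had 144 ± 8.69 RPKM in miR-27 Tg and 219.7 ± 41.6 RPKM in WT (-0.59, adjusted p = 0.110), and 52.1% of its exonic bases lie in exons of other genes as well. Among DNA-binding partners, co-activators and co-repressor partners of SMADs, 0 of 24 passed, and 0 had an unadjusted p under 0.05 (median 0.07). The largest differences there were those of Zeb2, a repressor, and of Sap30, a deacetylase subunit. Zeb2 had 2.63, 11.4 and 7.12 RPKM in miR-27 Tg and 3.72, 2.92 and 5.32 RPKM in WT, which overlap. Its means were 7.05 ± 4.39 RPKM in miR-27 Tg and 3.98 ± 1.22 RPKM in WT (limma adjusted p = 0.673). Sap30 had 23.5 ± 3.17 RPKM in miR-27 Tg and 17.6 ± 4.58 RPKM in WT (limma adjusted p = 0.463).

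Among 25 tested genes known to respond to TGF-beta, 5 were lower in miR-27 Tg and 0 were higher by limma, with a median log2 fold change of -0.12. This list was drawn up with results of these data known and is no independent evidence of a direction. The genes that fell were Itgae (log2 fold change -2.05, adjusted p = 0.00534), Gzmb (-2.02, 0.0395), Ccr8 (-1.23, 0.0257), Ifng (-1.17, 0.0343) and Rgs16 (-0.92, 0.0460). As background, TGF-beta induces Itgae, which encodes CD103, and represses Gzmb and Ifng in T cells, so the 5 do not share 1 known direction of response. Rgs16, which shortens G protein signalling, had 139, 140.4 and 115 RPKM in miR-27 Tg and 294, 269 and 196 RPKM in WT, and its adjusted p was 0.0530 to 0.163 with any 1 library left out. Without WT replicate 3, the adjusted p of Itgae was 0.0530. Ccr8 passed only without miR-27 Tg replicate 2, Gzmb only without WT replicate 2 and Ifng only without miR-27 Tg replicate 2 among those fits, with adjusted p of up to 0.107, 0.121 and 0.134. With no filter on low values, which tests 24453 symbols, none of the 7 pathway genes that had passed did so, with adjusted p of 0.0714 for Itgae to 0.284 for Gzmb. With no intensity trend Rgs16, Gzmb and Ifng did not pass (adjusted p = 0.0842, 0.0720 and 0.0534), nor did Rgs16 with array weights (0.0578) or median scaling (0.0607). Exons of other genes cover 25.9% of the exonic bases of Ifng and 10.1% of those of Rgs16.

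**Figure D4:**
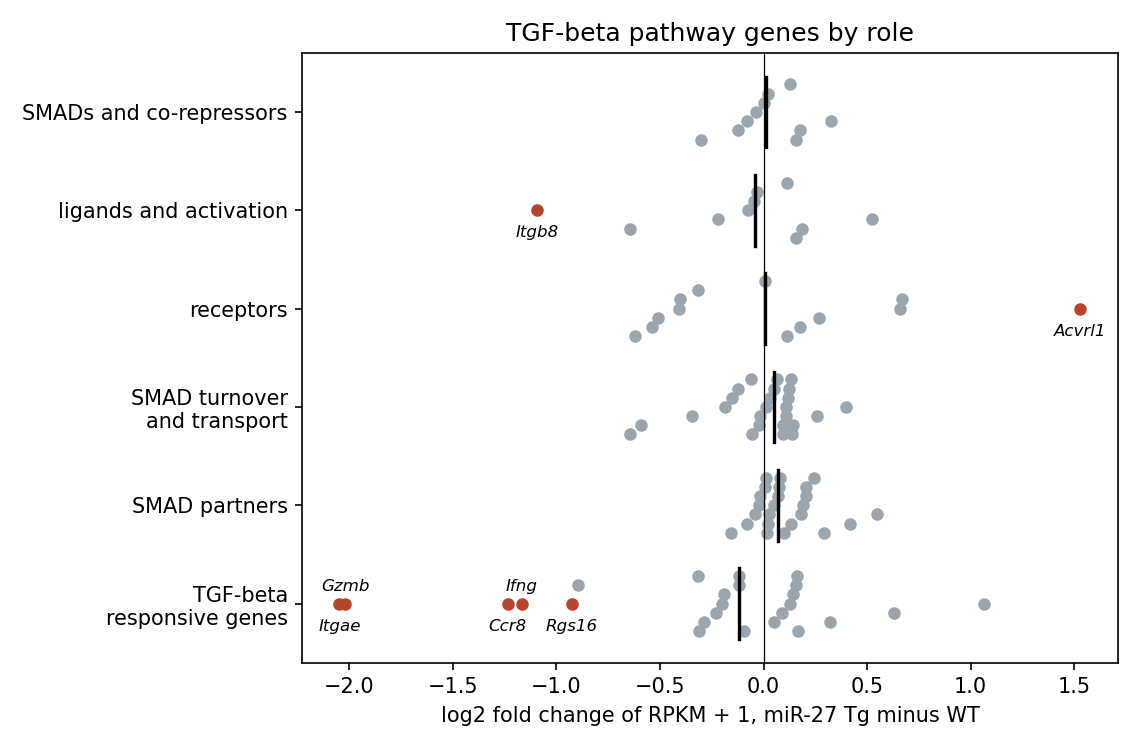
Log2 fold change (horizontal axis, miR-27 Tg minus WT, log2(RPKM + 1) scale) of the 10 SMAD and co-repressor genes and of the tested genes of 5 pathway lists, 1 point per gene, with the list median as a vertical bar. Genes with an adjusted p under 0.05 by limma are red and named; 0 of the 10 SMAD and co-repressor genes are red, and Acvrl1 (1.53) is the red point above 0.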

How the data were processed

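The authors deposited 1 table of RPKM values for the 6 libraries. Per the submitters' processing notes, the tools were STAR 2.2.0c and HOMER and the builds mm10 and GRCm38. Reads in exons of RefSeq transcripts of mm10 were counted on both strands and scaled to library totals of 10000000, per the file headers. Low values were whole multiples of 1 read's value (100% within 0.1 of a read), which gave the depth and the read numbers. RPKM values are not counts, so no count model was used.

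From these values, 1 transcript per symbol was kept, and log2(RPKM + 1) was fitted with limma 3.58.1 (R 4.3.3, intensity trend, two-sided, threshold 0.05, no replicate block). The method was tested on simulated data. Alternatives changed the pseudocount, filter, trend, weights, scaling, transcript choice, block and libraries. The 10 genes and the lists were chosen with earlier results of these data known. Genes named outside the 10 are pathway list genes that passed, the 2 largest changes per list, Tgfb1, Tgfbr1, Tgfbr2, Smad6, Smad9 and the 3 genes most like Smad5, the gene with the smallest p, of which 1 is not reported here; Itgam is named as the 1 marker that passed. Marker lists of B cells, CD8 T and NK cells and erythroid cells were also fixed: of their tested members 0 of 10, 2 of 9 (both lower) and 0 of 6 passed by limma. Fold changes above 0 numbered 7, 4 and 0 in these lists. The summed level of the B cell markers was 778 to 2427 RPKM in miR-27 Tg and 613 to 1199 RPKM in WT, which overlap.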

Additional observations from a re-analysis of the deposited data

How the results depend on the processing

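In each of the 15 alternatives 0 of the 10 SMAD and co-repressor genes passed in either direction. With all libraries kept, 89 of 90 fold changes kept their sign. The exception was Smad2, at -0.0043 with its longest transcript. The filter, trend, short-transcript and block settings cannot alter a gene's fold change, nor can transcript choice where a symbol has only 1 transcript. Many of these signs were thus fixed in advance, and the count is no measure of stability. Smad5 ranged from 0.30 to 0.37, with adjusted p of 0.0928 (array weights) to 0.384. Leaving out 1 library, the log2 fold change ranged from 0.026 (without WT replicate 2) to 0.29 (without WT replicate 1) for Smad1, from -0.048 to 0.083 for Smad2, -0.19 to 0.011 for Smad3, -0.012 to 0.058 for Smad4, -0.074 to 0.26 for Smad7, -0.0053 to 0.31 for Ski, -0.15 to 0.092 for Pmepa1, -0.18 to 0.31 for Tgfb1 and -0.021 to 0.22 for Tgfbr2. Tgfb1 was at -0.026 with array weights. Over all genes tested, 51 were higher and 89 lower. These counts were 22 and 14 with no filter, which tests 24453 symbols, and 81 and 144 with array weights. They were 3 to 14 and 1 to 44 with 1 library left out. Of the pathway list genes, 0 were higher and 0 lower with no filter and 3 lower with no intensity trend. With 1 library left out, 0 to 1 were higher and 0 to 3 lower. The cause was not tested for array weights and trend.

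With the replicate number as a block, 91 genes were higher and 185 lower, and Smad5 had an adjusted p of 0.155. Nothing in the labels ties equal numbers, and deviations of same-numbered libraries correlated at 0.368, 0.097 and 0.037 for numbers 1 to 3. miR-27 Tg replicates 2 and 3 correlated best with another number, so the numbers are not taken as pairs. Usp11 and Ldlrad4 passed under the block (adjusted p = 0.0416 and 0.0412).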
